A study of Ovis aries with 32 samples.

Results

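The SPRED and Sprouty proteins and the phosphatases DUSP4 and DUSP6 were followed in sheep perirenal preadipocytes before and after differentiation. The members were the rows of the deposited table whose gene name was SPRED1, SPRED2, SPRED3, SPRY1, SPRY2, SPRY4, DUSP4 or DUSP6, and they numbered 8 of 21271 genes, or 11 of 35219 transcripts. The cells came from perirenal fat of near-term fetuses carried as singletons by crossbred Columbia-Rambouillet ewes. Fetal growth restriction (FGR) had been produced with ambient heat during pregnancy, which causes placental insufficiency, and the control ewes were pair-fed. The 4 preadipocyte groups were control males (MC), control females (FC), FGR males (MFGR) and FGR females (FFGR). Their differentiated cells were named MCD, FCD, MFGRD and FFGRD, and each of the 8 groups had 4 RNA-seq libraries. The sources do not say whether the 4 libraries of a group came from separate fetuses. Nor do they say whether same-numbered preadipocyte and differentiated libraries came from the same fetus. The p-values therefore measure the spread between these libraries. The libraries are bulk samples, in which fewer cells of a type and less RNA per cell cannot be told apart.

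Growth factor receptors activate RAS, which passes the signal through RAF and MEK to the kinase ERK. SPRED proteins bring neurofibromin, which switches RAS off, to the cell membrane, and Sprouty proteins block the same route nearer the receptor. DUSP4 removes phosphate from ERK mainly in the nucleus and DUSP6 does so in the cytoplasm. Many of these inhibitors are themselves induced by ERK, which makes them part of a feedback loop, and ERK activity is known to affect the commitment of preadipocytes and their maturation into adipocytes.

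The deposited values were normalized estimated reads, given here as "value", and summed over the transcripts of a gene. The libraries held approximately 7.76 M to 21.32 M reads, and a value of 10 stood for 5.6 to 14.4 reads. The adipocyte markers ADIPOQ, FABP4 and PLIN1 rose with differentiation in the mean of the 4 groups, by 6.82, 9.55 and 5.28 on the log2 scale (adjusted p = 4.454e-08, 1.005e-10 and 3.772e-08 by limma). FCD replicate 4 held little of them, with ADIPOQ at 8.59 and PLIN1 at 19.0. The preadipocyte marker DLK1, the endothelial CDH5 and CLDN5 and the pericyte marker RGS5 stayed under 10 in every library. The sum of 7 preadipocyte markers was 2462 to 25070 in preadipocytes and 3279 to 28530 in differentiated cells. Over the mean of the 4 groups, THY1 and NT5E rose (log2 fold change 1.65 and 1.42) and ENG and PDGFRB fell (-2.13 and -0.82). CD34 (-1.04) and PDGFRA (-0.20) did not pass the test. The sum of 7 endothelial markers was 11.5 to 126 and 5.84 to 287. KDR fell (-1.43), while PECAM1 (-0.79), VWF (-0.84) and TEK (0.06) did not pass. The sum of 7 macrophage and leukocyte markers was 90.5 to 1129 in preadipocytes and 123 to 950 in differentiated cells, and that of 6 smooth muscle and pericyte markers was 2914 to 24260 and 350 to 8269. Of the macrophage and leukocyte markers, 3 of 7 passed the filter, of which CD14 and CD163 rose by 1.86 and 2.85 and CD68 fell by 0.81 on the log2 scale over the mean of the 4 groups. Of the smooth muscle and pericyte markers, 5 of 6 passed it, of which CNN1, DES and ACTG2 fell (log2 fold change -2.73, -3.43 and -1.396), while MYH11 (-1.12) and NOTCH3 (-0.48) did not pass the test. The part of these markers in the results was not tested. In 7 libraries, which were replicates 2 and 3 of FFGR, 1 of both MFGR and MFGRD, 2 of FC, 3 of FFGRD and 4 of MCD and which split from the other 25 when libraries were clustered by their correlation, transcripts with a long genomic span were low relative to those with a short span. The slope of the values on the span, called span slope here, had a median of 0.236 over the 32 libraries and reached -1.06 at the lowest. Among the other 25 libraries, MCD replicate 2 and FCD replicate 2 also had low slopes, -0.471 and -0.404.

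With differentiation, DUSP4, SPRY4, DUSP6 and SPRY1 rose and SPRED3 fell, while SPRED1, SPRED2 and SPRY2 did not pass the test. Over the mean of the 4 groups, 4 of the 8 members were called higher, where 12.4% of the 12737 genes tested were, and 1 was called lower, where 14.8% were. A gene was called when limma gave an adjusted p below 0.05 and a fold change above 1.5, and 27.2% of all genes tested were called in either direction. The median log2 fold change was 0.81 over the 8 members and 0.04 over all genes tested. SPRED3, at 10 or more in 13 preadipocyte and 0 differentiated libraries, and SPRY4, at 10 or more in 1 preadipocyte and 12 differentiated libraries, passed the filter on low values only through the stage in which they were high and so had to differ between the stages. For this reason, and because the members were chosen with results known, these counts are descriptions.

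**Figure D1:**
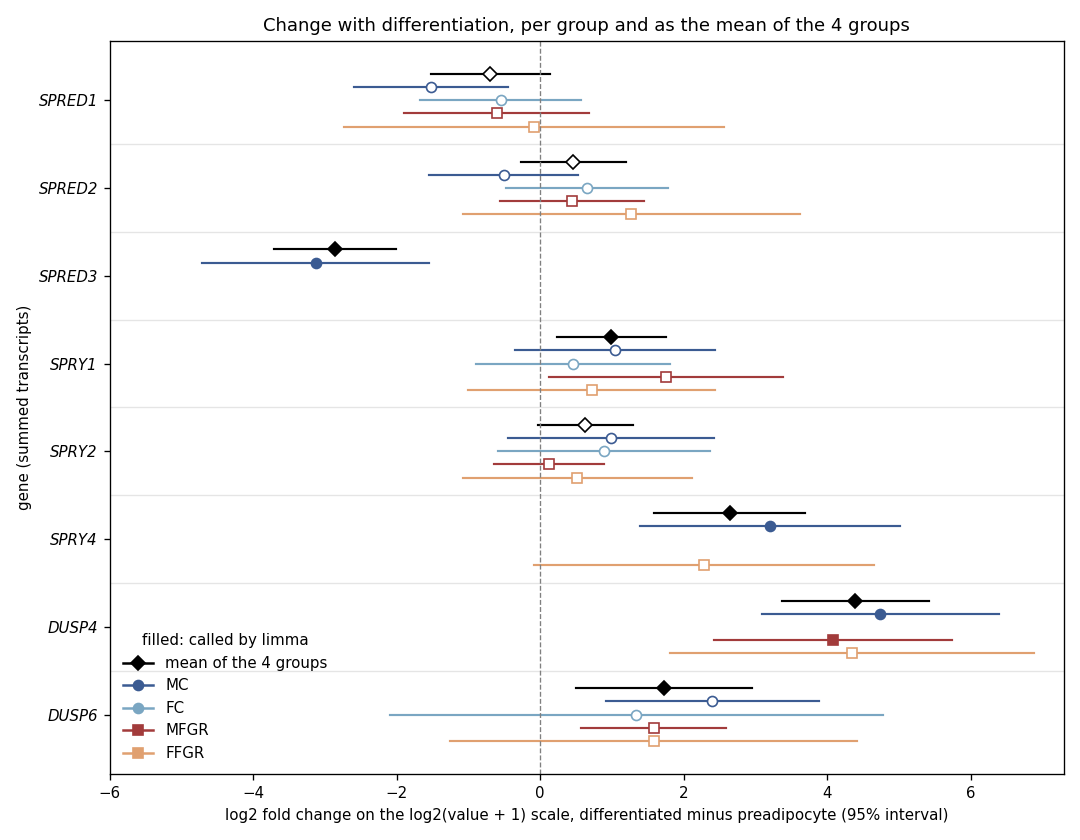
Log2 fold change of each gene's summed value with differentiation (x axis, log2(value + 1) scale) for the mean of the 4 groups and for MC, FC, MFGR and FFGR, with 95% intervals as lines. Filled symbols mark genes called by limma, a missing symbol marks a gene below the filter in that comparison, and the mean of the 4 groups ran from -2.86 for SPRED3 to 4.39 for DUSP4.

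SPRED3, a SPRED with the same C-terminal Sprouty-related domain as the others, was the member that fell. Its locus lies on chromosome 14 of Oar_rambouillet_v1.0 (51082005 to 51089416), and the file listed 2 transcripts for it. In MC the values were 30.7, 21.2, 29.6 and 19.98, and in MCD they were 7.81, 1.47, 2.56 and 0. In MFGR they were 8.36, 11.9, 23.4 and 19.95, and in MFGRD 5.43, 0.84, 3.11 and 0. Every MCD and MFGRD library lay below every preadipocyte library of the same sex and growth group. In FC the values were 52.3, 12.9, 23.9 and 7.79, against 5.33, 7.69, 1.08 and 0 in FCD, and these groups did not overlap either. In FFGR they were 39.7, 1.41, 14.3 and 26.1, against 0.80, 0, 0 and 3.02 in FFGRD, where FFGR replicate 2, a library that stands apart, fell within the range of FFGRD.

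Over the mean of the 4 groups the log2 fold change of SPRED3 was -2.86 (SE 0.41, 95% interval -3.70 to -2.01, adjusted p = 4.224e-06 by limma). Since SPRED3 passed the filter only through preadipocytes and had to differ between the stages, this p-value is a description. All 16 differentiated libraries lay below the median of the preadipocyte libraries, and all 16 lay below the preadipocyte library of the same group and number. Within single groups, SPRED3 was called in MC (log2 fold change -3.13, adjusted p = 0.02786) and was below the filter in FC, MFGR and FFGR. Two-sided exact permutation tests on the log2 values, 4 against 4 libraries, gave p = 0.0286 in FC and in MFGR, which is the smallest such a test can give, and p = 0.0571 in FFGR. Without the 7 libraries that stand apart, the log2 fold change was -3.19 (adjusted p = 5.141e-06). The differentiated libraries held at most 7.81, so that the fall was to within a few reads of 0.

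Both SPRED3 transcripts fell, SPRED3-202 (51083870 to 51089416) by 3.01 (adjusted p = 1.784e-06) and SPRED3-201 by 1.47 (adjusted p = 0.03868) on the log2 scale. They were at 10 or more in 9 and 6 preadipocyte libraries and in 0 differentiated libraries. Both thus passed the filter only through preadipocytes and had to differ between the stages, so these values are descriptions. The call of SPRED3-201 was lost in 17 of the 32 fits that left out 1 library (adjusted p up to 0.069 by limma). Within single groups, exact permutation tests of SPRED3-201 gave p = 0.0571 in MC, 0.657 in FC, 0.114 in MFGR and 0.171 in FFGR. SPRED3-202 held 64.9% of the summed value of the gene in preadipocytes and 23.1% in differentiated cells. It was listed at 0 in 1 of 16 preadipocyte libraries and in 10 of 16 differentiated libraries. The estimate splits reads between overlapping transcripts, so the division between them is less certain than their sum.

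**Figure D2:**
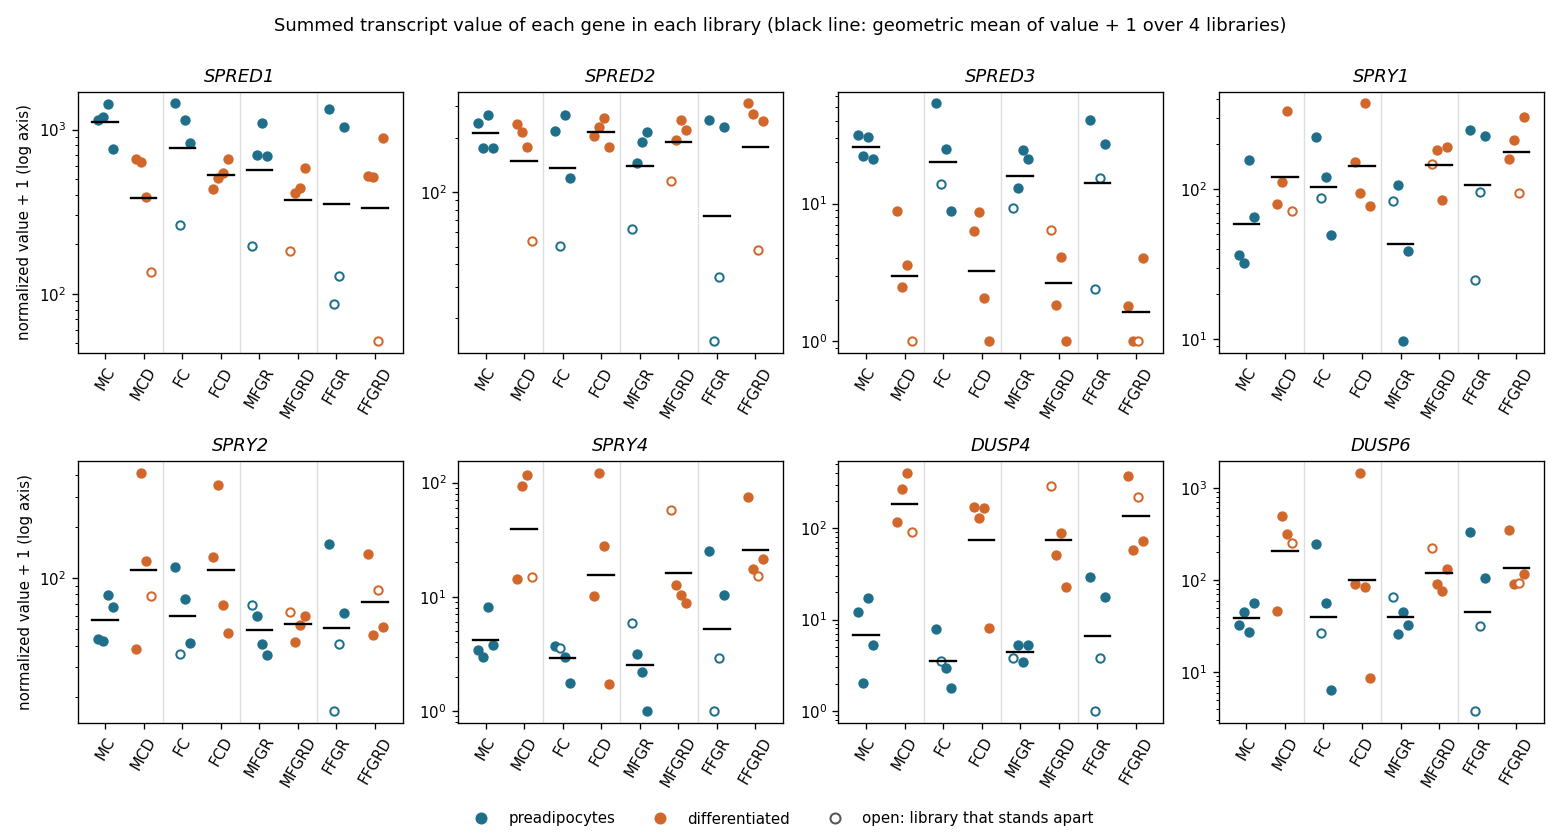
Summed value + 1 of each of the 8 genes (log axis) in the 32 libraries, by group, with preadipocytes in blue, differentiated cells in orange, open circles for the 7 libraries that stand apart and a black line for the geometric mean of 4 libraries. SPRED3 is lower and DUSP4 higher in each differentiated group, and DUSP6 reaches 1447 in FCD replicate 2.

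SPRED1, which with neurofibromin is the family's best known brake on RAS, lies on chromosome 7 (33679919 to 33800194). Its values were 1149, 1190, 1427 and 762 in MC and 660, 632, 386 and 135 in MCD, and these groups did not overlap. In the other groups they did overlap. The log2 fold change over the mean of the 4 groups was -0.69 (SE 0.41, 95% interval -1.52 to 0.14, adjusted p = 0.2071). With a replicate block, which compares libraries of the same number in all 4 groups, FFGR included, the fall was called (adjusted p = 0.04953). All 16 differentiated libraries nevertheless lay below the preadipocyte median, and 14 of 16 lay below the preadipocyte library of the same number.

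SPRED2 lies on chromosome 3 (44850952 to 44969256), and its longest transcript SPRED2-201 held 97.8% of the value. The other transcripts, SPRED2-202 and SPRED2-203, were listed at 0 in 28 and 27 of 32 libraries. The summed values were 241, 174, 268 and 175 in MC and 237, 215, 178 and 52.4 in MCD. Its log2 fold change was 0.46 (SE 0.36, 95% interval -0.27 to 1.198, adjusted p = 0.3589), with -0.51 in MC and 0.44 to 1.27 in the other groups. The value in MC rested on MCD replicate 4, a library that stands apart, without which it was -0.0166.

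SPRED1 and SPRED2 both span long stretches of the genome, 120276 and 118305 bases, and both were low in the libraries that stand apart. SPRED1 ranged from 50.4 to 262 in these 7 libraries and from 386 to 1440 in the other 25. SPRED2 ranged from 13.9 to 115 in the 7 and from 119 to 309 in the others, so the ranges did not overlap for either gene. The Pearson correlation of the log2 value with the span slope over the 32 libraries was 0.83 for SPRED1 and 0.85 for SPRED2, and between -0.05 and 0.25 for the other members. For SPRED3, taken as deviations from the group means, it was 0.39. SPRED3 averaged 9.22 in preadipocyte libraries that stand apart and 25.5 in the other preadipocyte libraries. These correlations share the libraries and their depth and are descriptions. Deviations of SPRED1 and SPRED2 from their group means ran together (r = 0.95).

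Without the 7 libraries that stand apart, SPRED1 averaged 1067 ± 269 (SD, n = 12) in preadipocytes and 552 ± 137 (SD, n = 13) in differentiated cells. The fall was then called, with a log2 fold change of -0.95 (adjusted p = 4.419e-05 by limma). With the span slope as a covariate on all 32 libraries, it was called as well (-0.67, adjusted p = 0.006191). SPRED2 averaged 207 ± 47.7 and 230 ± 37.8 in the same libraries, with a log2 fold change of 0.16 (adjusted p = 0.3575). With the span slope as a covariate, the change in SPRED2 was 0.48 on the log2 scale (adjusted p = 0.03159), under the fold change threshold.

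**Figure D3:**
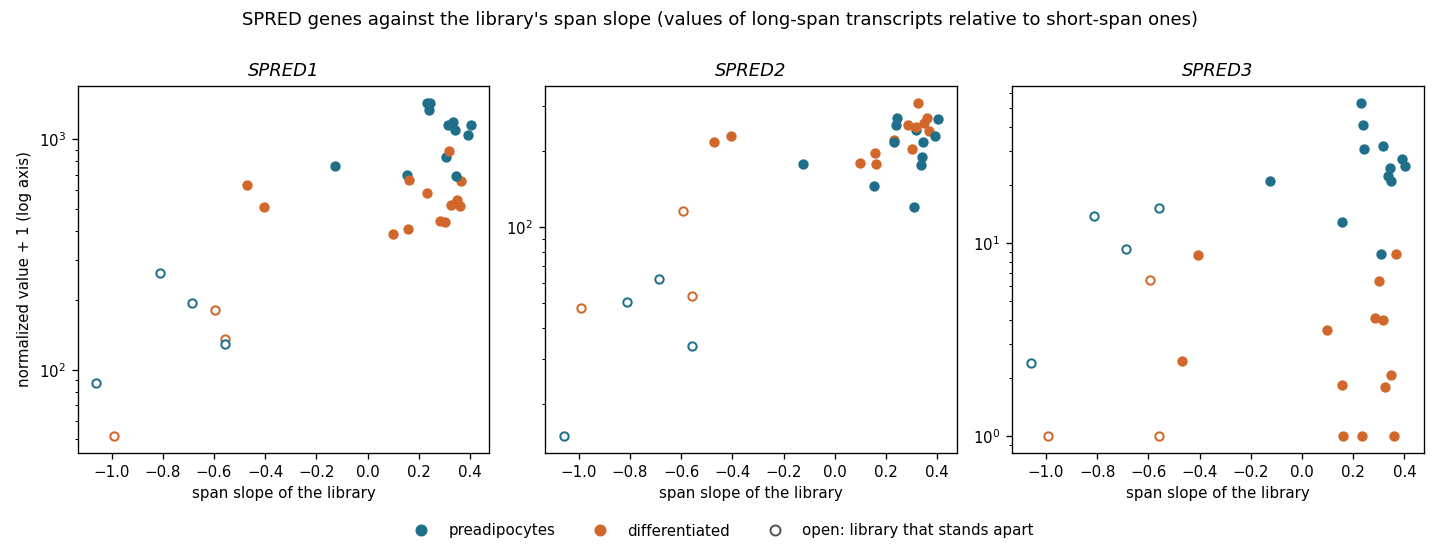
Value + 1 of SPRED1, SPRED2 and SPRED3 (log axis) against the span slope of each of the 32 libraries, with preadipocytes in blue, differentiated cells in orange and the 7 libraries that stand apart as open circles. SPRED1 and SPRED2 are lowest in the open circles. SPRED3 is lower in differentiated cells, but at the lowest slope the preadipocyte library FFGR replicate 2 is at 1.41, within the differentiated range.

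SPRY4, a Sprouty that acts on RAS and RAF activation, rose from values near 0. It lies on chromosome 5 (55670812 to 55676384). In MC the values were 2.44, 1.99, 7.06 and 2.82, and in MCD 13.2, 91.6, 116 and 13.9. In MFGR they were 4.85, 2.14, 1.21 and 0, and in MFGRD 56.3, 11.7, 9.35 and 7.77, so that neither pair of groups overlapped. In FC they were 2.73, 2.57, 1.98 and 0.78, against 9.17, 120, 26.6 and 0.71 in FCD, where FCD replicate 4 stayed in the preadipocyte range. In FFGR they were 24.3, 0, 1.90 and 9.26, against 74.2, 16.6, 14.2 and 20.4 in FFGRD, with FFGR replicate 1 inside the differentiated range.

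The log2 fold change of SPRY4 over the mean of the 4 groups was 2.65 (SE 0.51, 95% interval 1.59 to 3.70, adjusted p = 0.0001972). Since SPRY4 passed the filter only through differentiated cells and had to differ between the stages, this p-value is a description. SPRY4 was called in MC (3.20, adjusted p = 0.04255) and not in FFGR (2.29, adjusted p = 0.3414). In MFGR it was below the filter, and an exact permutation test, two-sided, gave p = 0.0286; in FC it gave p = 0.143. The call in MC was lost without any one MC library (adjusted p up to 0.112), and without any one MCD library the gene was below the filter.

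SPRY1, which restrains growth factor signalling in many progenitor cells, lies on chromosome 17 (40195787 to 40199920). Over all preadipocyte libraries its value was 99.6 ± 76.7 (SD, n = 16), and over all differentiated libraries it was 166 ± 96.2 (SD, n = 16), with wide overlap. The log2 fold change was 0.99 (SE 0.37, 95% interval 0.23 to 1.76, adjusted p = 0.03947). The call did not hold for its only transcript tested against all transcripts (adjusted p = 0.05753), nor in 15 of the 32 fits that left out 1 library (adjusted p up to 0.0729, without MCD replicate 3), nor without the 7 libraries that stand apart (0.90, adjusted p = 0.07686). In MFGR the values were 82.9, 106, 8.63 and 37.9, and in MFGRD 146, 183, 83.7 and 191, a log2 fold change of 1.76 (adjusted p = 0.2797).

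SPRY2, the most widely expressed Sprouty, lies on chromosome 10 (59776107 to 59777054). Its values in MCD were 37.4, 411, 125 and 77.4, and in FCD 131, 349, 68.2 and 46.3, against 41.8 to 78.7 in MC and 34.7 to 115 in FC. Replicate 2 was thus the highest library in both MCD and FCD. In MFGRD the values lay between 41.0 and 61.9, within the range of 34.2 to 68.6 in MFGR. The log2 fold change over the mean of the 4 groups was 0.63 (SE 0.32, 95% interval -0.03 to 1.29, adjusted p = 0.1414).

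DUSP4, the nuclear ERK phosphatase, had the largest change of the members. It lies on chromosome 26 (28068442 to 28081897). In MC its values were 11.02, 1.01, 16.3 and 4.29, and in MCD 116, 267, 399 and 89.6. In MFGR they were 2.79, 4.33, 2.47 and 4.22, and in MFGRD 290, 50.3, 88.4 and 21.6. In FC they were 6.87, 2.55, 1.99 and 0.77, and in FCD 169, 129, 164 and 7.06. In FFGR they were 28.2, 0, 2.83 and 16.7, and in FFGRD 372, 56.2, 216 and 71.9. In each of the 4 groups the differentiated libraries lay above the preadipocyte libraries, with FCD replicate 4 only just above FC.

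The log2 fold change of DUSP4 over the mean of the 4 groups was 4.39 (SE 0.50, 95% interval 3.37 to 5.42, adjusted p = 1.182e-07 by limma), and 0.612% of all genes tested moved by more in either direction. In 14 of 16 differentiated libraries the value was above the highest preadipocyte library, and in 16 of 16 it was above the preadipocyte library of the same group and number. The ratio of the group means was 26.7 in MC, 38.5 in FC, 32.6 in MFGR and 15.0 in FFGR. Within single groups, it was called in MC (4.74, adjusted p = 0.006204) and MFGR (4.08, adjusted p = 0.02334) and not in FFGR (4.34, adjusted p = 0.085). In FC it was below the filter, and a two-sided exact permutation test gave p = 0.0286.

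DUSP6, the cytoplasmic ERK phosphatase and a common readout of ERK activity, lies on chromosome 3 (135082357 to 135085839). Its values in MC were 31.8, 43.5, 26.5 and 55.8, against 44.8, 490, 313 and 251 in MCD. In MFGR they were 64.8, 24.9, 44.4 and 31.6, against 223, 90.5, 74.4 and 130 in MFGRD, with no overlap. In FC they were 246, 25.5, 55.6 and 5.41, against 90.3, 1447, 83.8 and 7.76 in FCD, and in FFGR they were 330, 2.79, 31.1 and 106, against 351, 90.5, 91.6 and 115 in FFGRD. The female groups overlapped widely, and replicate 4 was lowest in both FC and FCD.

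The log2 fold change of DUSP6 over the mean of the 4 groups was 1.73 (SE 0.60, 95% interval 0.50 to 2.96, adjusted p = 0.02674). The call was lost without FC replicate 4 (adjusted p = 0.05013), without the 7 libraries that stand apart (1.18, adjusted p = 0.1684) and without MCD replicate 2 and FCD replicate 2 (1.301, adjusted p = 0.07419), the last a setting chosen after the values were seen. Its only transcript, tested against all transcripts, lost the call in 15 of the 32 fits that left out 1 library (adjusted p up to 0.0712 by limma). FCD replicate 2 also held the highest sum of the 7 endothelial markers, 287, of which PECAM1 made up 272, beside 11.5 to 126 in preadipocytes. Among differentiated libraries it had the highest macrophage and leukocyte sum, 950, and a preadipocyte marker sum of 3842, where the range was 3279 to 28530. The part of these markers in the result was not tested.

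By group, 3 of the 8 members were called in MC, where 7.53% of the genes tested were, and 1 in MFGR, where 3.38% were. Of these, SPRED3 and SPRY4 in MC and DUSP4 in MFGR were at 10 or more in all 4 libraries of one stage and 0 of the other. They passed the filter only through the stage in which they were high and so had to differ. In FC (0.43% of genes) and FFGR (2.67% of genes) limma called 0 members, and 0 (12.6% of genes) and 1 (15.5% of genes) had an unadjusted p below 0.05. Among members that passed the filter, the groups did not overlap for 4 of 8 in MC (16.1% of genes), 0 of 5 in FC (10.1%), 2 of 6 in MFGR (11.1%) and 1 of 7 in FFGR (11.3%). For SPRED3 and SPRY4 in MC and for DUSP4 in MFGR the filter alone fixed this, so these counts are descriptions. Among transcripts, 5 of the 11 were called over the mean of the 4 groups (19.8% of transcripts), 1 in MC (2.83%) and 0 in FC (0.143%), MFGR (1.32%) and FFGR (0.616%), with 0 (10% of transcripts), 3 (13.1%) and 1 (12.7%) at an unadjusted p below 0.05.

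Same-numbered preadipocyte and differentiated libraries deviated together in MC, FC and MFGR, so these groups were also fitted as pairs. The sources do not give this pairing. It was judged from the same values (r = 0.162 to 0.671), without a comparison with differently numbered libraries, so its calls are descriptions. The largest r, that of replicate 1 in MFGR and MFGRD, joined libraries that both stand apart. With the replicate block, 5 members were called in MC, with DUSP6 (adjusted p = 0.01698) and SPRED1 (adjusted p = 0.01635) added. In MFGR 3 were called, with DUSP6 (adjusted p = 0.01559) and SPRY1 (adjusted p = 0.04263) added to DUSP4. In FC 0 members were called with the block. The 1 transcript called in MC, DUSP4-201, was lost with the block, and 2 were called in MFGR, DUSP4-201 and DUSP6-201. The call of DUSP4 in MFGR was lost without the 7 libraries that stand apart, where 0 members were called, and in the fits without MFGR replicate 2, 3 or 4 (adjusted p up to 0.0729), and without any one MFGRD library the gene was below the filter. In MC only DUSP4 was called without any one MC library, without MCD replicate 2 or without MCD replicate 3. The share of all genes called in these other fits is not given here. Whether calls rose or fell for the members alone or for all genes cannot be read from these counts.

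Whether growth restriction or sex changed the inhibitors was tested within each stage. Limma called 0 members for growth restriction in preadipocytes, for growth restriction in differentiated cells, for sex in preadipocytes and for sex in differentiated cells, and 0% of all genes tested were called in each. At an unadjusted p below 0.05 there were also 0 members, against 2.52%, 0.721%, 3.87% and 0.779% of genes. The log2 differences of the 7 members tested lay between -1.05 and 0.14 for growth restriction in preadipocytes, FGR minus control, and between -0.83 and 0.28 in differentiated cells. SPRED1 in preadipocytes, with -1.05 (95% interval -2.30 to 0.21), was the largest of these. Of the 8 FGR preadipocyte libraries 3 stand apart, and of the 8 control libraries 1 does, and SPRED1 was 86.3 to 262 in these 4 and 690 to 1440 in the other 12. Their part in the difference was not tested. For sex, male minus female, they lay between -1.08 and 0.77 in preadipocytes and between -0.26 and 0.43 in differentiated cells.

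Whether the response to differentiation differed between groups was tested as a difference of differences. The change in SPRED3 was smaller by 0.55 in MFGR than in MC on the log2 scale, with a 95% interval of -1.53 to 2.63 (adjusted p = 0.9662). The differences were -0.50 for FFGR against FC (-3.36 to 2.36), -0.51 for MC against FC (-2.90 to 1.88) and 0.54 for MFGR against FFGR (-2.06 to 3.14). These intervals span several log2 units and include 0, so a difference of that size was not detectable with 4 libraries a group. For all 8 members and these 4 differences, limma called 0 and 0 had an unadjusted p below 0.05, against 1.6%, 0.326%, 1.73% and 0.408% of genes. For genes called, the share was 0% in each. The largest member difference was that of SPRED2 for MC against FC, -1.16 (95% interval -2.68 to 0.36). The sign of the SPRED3 difference turned under some settings, as given in the closing section.

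The order of the 8 group means showed where the members separated. For SPRED3 the 4 preadipocyte groups came first, with MC at 25.4 ± 5.55, FC at 24.2 ± 19.9, FFGR at 20.4 ± 16.4 and MFGR at 15.9 ± 6.95 (SD, n = 4 each). FCD followed at 3.53 ± 3.61, and the ranges of MFGR and FCD, neighbours in this order, did not overlap. For DUSP4 and SPRY4 the 4 differentiated groups came first, led by MCD at 218 ± 144 and 58.6 ± 52.9. The ranges of all other neighbours overlapped for all 8 genes.

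In differentiated cells DUSP4 followed the adipocyte markers from library to library. Its deviation from the group mean had a Pearson correlation of 0.91 with that of ADIPOQ, the adipocyte hormone adiponectin, over the 16 differentiated libraries. With PLIN1, the lipid droplet coat protein, it was 0.88, and with FABP4, the fatty acid carrier, 0.76. SPRY4 followed ADIPOQ with 0.65 and DUSP6 with 0.55, and SPRED3 had 0.21. SPRED1 went the other way, with -0.54 for ADIPOQ and -0.73 for FABP4, and SPRED2 had -0.27 and -0.55. The 3 differentiated libraries that stand apart held the lowest SPRED1 values, 50.4 to 181, and the highest FABP4 values, 98380 to 167600, and their part in these correlations was not tested. FCD replicate 4, with the lowest ADIPOQ of the differentiated libraries, also had the lowest DUSP4 (7.06), SPRY4 (0.71) and DUSP6 (7.76) of them. The points share libraries, depth and the extent of differentiation, whose part in the result was not tested.

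**Figure D4:**
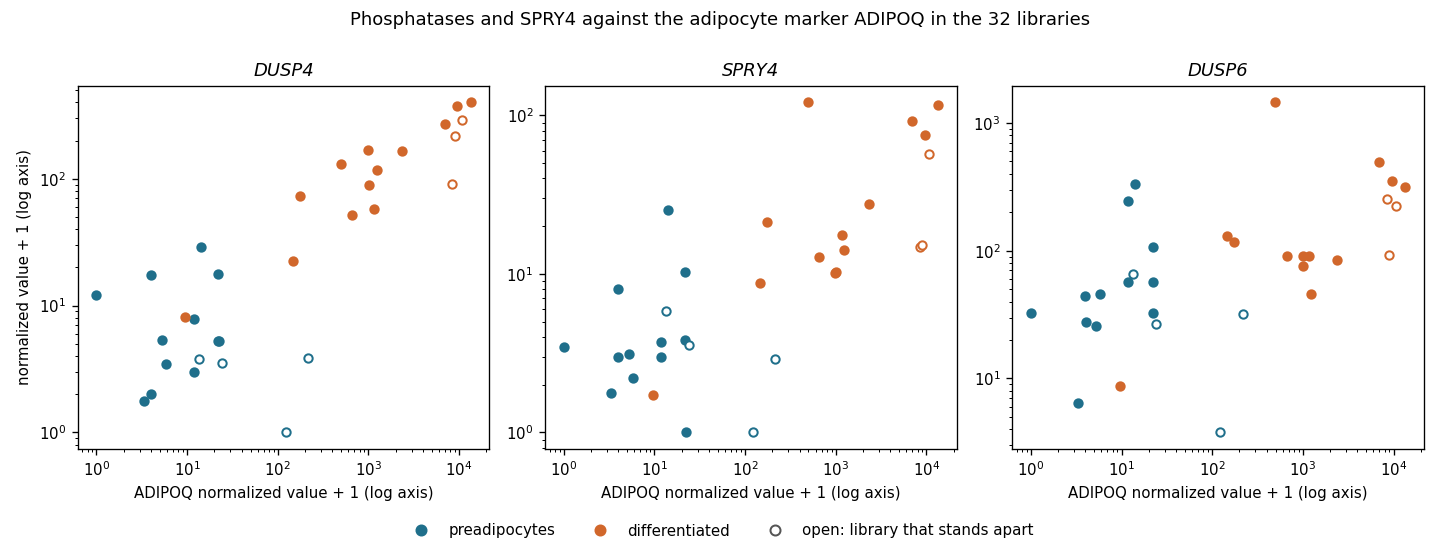
Value + 1 of DUSP4, SPRY4 and DUSP6 against that of ADIPOQ (both log axes) in the 32 libraries, with preadipocytes in blue, differentiated cells in orange and the 7 libraries that stand apart as open circles. DUSP4 climbs with ADIPOQ among differentiated libraries (r of deviations 0.91), and the orange point at ADIPOQ 8.59 is FCD replicate 4.

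Several members deviated together from library to library. Over the 32 libraries the deviations from the group means had correlations of 0.84 for DUSP6 and SPRY2, 0.82 for DUSP6 and SPRY4, 0.78 for DUSP4 and SPRY4 and 0.78 for SPRY2 and SPRY4. By stage, these pairs had 0.751 to 0.87 in preadipocytes and 0.738 to 0.885 in differentiated cells. SPRED3, which fell, had 0.67 with DUSP4, as DUSP6 did, and SPRY1 had 0.43 to 0.52 with DUSP4, SPRY4 and DUSP6. The SPRY1 values were 0.619 to 0.748 in preadipocytes and 0.148 to 0.363 in differentiated cells. For SPRED3 with DUSP4 they were 0.819 and 0.547. FFGR replicate 2, which stands apart, was the lowest preadipocyte library for SPRED3, SPRY2, DUSP4 and DUSP6 (1.41, 15.5, 0 and 2.79). Its part in these correlations was not tested. Among genes that passed the filter, those most like DUSP4 over the 32 libraries were ENPEP (r = 0.95), ATP12A (0.93) and ABCG1 (0.92). Those most like SPRY4 were DUSP4 (0.89), CD14 (0.85) and BTG1 (0.84), and those most like DUSP6 were SDC4 (0.89), SPRY4 (0.84) and SPRY2 (0.81). MTSS1 (0.91) and ETV1 (0.90) were among the genes most like SPRED3, and SPRY1 was most like KCTD21 (0.72), ROS1 (0.70) and LRP5 (0.69). These are descriptions over 10618 named genes, and they include the difference between the stages.

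Of 92 other genes of the RAS and ERK pathway, 87 were found and 81 tested, of which 12 rose, 16 fell and 53 did not pass the test, beside 12.4% higher and 14.8% lower of all genes tested. Their median log2 fold change was -0.06, beside 0.04 for all genes tested. The ERK-responsive genes held 3 that rose and 6 that fell of 19. The early response transcription factors EGR1, MYC and JUN rose by 1.25, 1.19 and 1.00 (adjusted p = 0.04706, 1.411e-06 and 0.002521). Among those that fell were the ETS transcription factors ETV1 (log2 fold change -3.44, SE 0.44, adjusted p = 6.416e-07) and ETV4 (-3.15, SE 0.64, adjusted p = 0.0003485). The cell cycle gene CCND1 fell by 3.27 (adjusted p = 1.135e-05) and the early response gene IER3 fell by 2.12 (adjusted p = 0.003999). The ephrin receptors EPHA2 and EPHA4 fell by 1.26 and 0.99 (adjusted p = 0.002372 and 0.02136). ETV5 (0.09, adjusted p = 0.9047) and PHLDA1 (-0.72, adjusted p = 0.05527) did not pass.

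Among the 11 ligands tested, 3 rose and 4 fell. The EGF receptor ligands AREG and TGFA rose by 3.06 and 1.34 (adjusted p = 3.039e-05 and 0.03369), while the related EREG fell by 2.31 (adjusted p = 0.001173). FGF18 fell by 3.25 (adjusted p = 2.13e-06), and PDGFA, a growth factor for mesenchymal cells, fell by 1.66 (adjusted p = 0.001137). Of the 11 receptors, 2 rose and 1 fell, with FGFR3 up by 2.12 (adjusted p = 2.976e-07) and the insulin receptor INSR up by 1.36 (adjusted p = 0.02507). KSR1, a scaffold that holds RAF, MEK and ERK together, rose by 2.16 (adjusted p = 2.937e-07), the one rise among 7 kinases and scaffolds. Of 8 other inhibitors of the pathway, 1 passed, the caveolar protein CAV1, which rose by 1.47 (adjusted p = 0.02461).

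Of 6 RAS GTPase-activating proteins, the class of neurofibromin, 0 passed in either direction. NF1, the partner of the SPRED proteins, had a log2 fold change of 0.20 (SE 0.60, adjusted p = 0.8404). Of 6 other MAP kinase phosphatases tested, 1 rose and 1 fell. RAS proteins held 1 that fell of 6, and adaptors and exchange factors held 1 that rose and 2 that fell of 7.

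**Figure D5:**
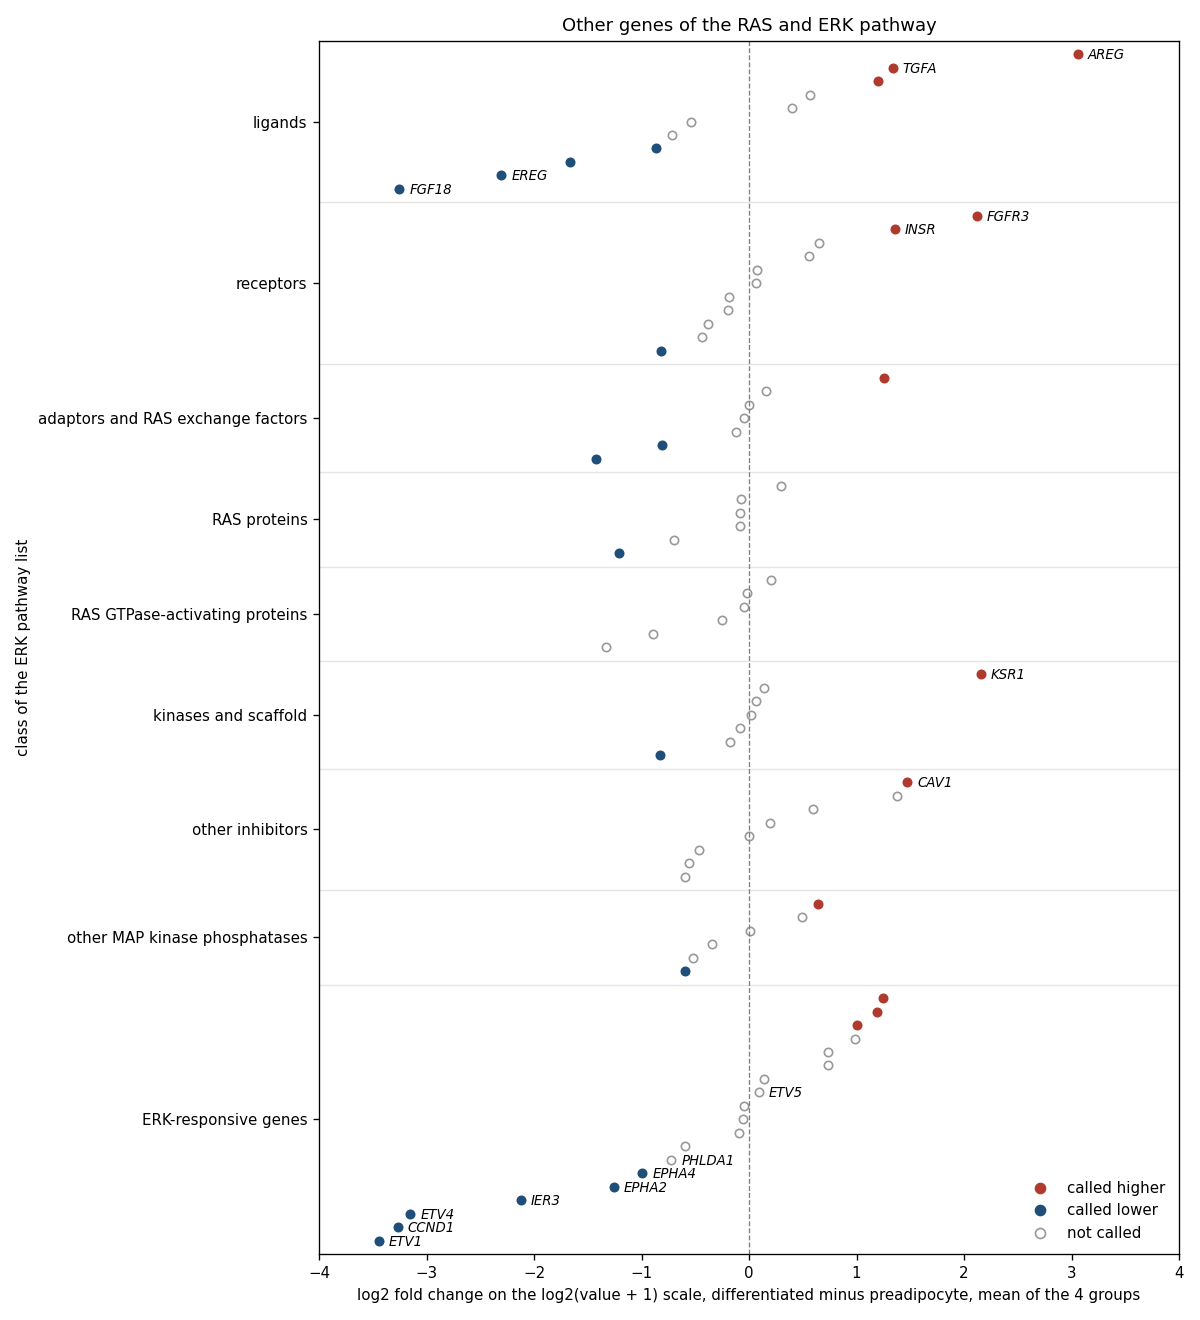
Log2 fold change with differentiation over the mean of the 4 groups (x axis, log2(value + 1) scale) for the 81 tested genes of the pathway list, by class, with called rises in red, called falls in blue and other genes open. ETV1 has the lowest value, -3.44, and AREG the highest, 3.06.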

How the data were processed

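RNA was measured in 32 libraries of perirenal preadipocytes and differentiated cells. The authors quantified transcripts with Salmon on Oar_rambouillet_v1.0 and normalized with DESeq2, and they deposited this signal per transcript and library. FastQC 0.11.9 is named per the labels. The deposited columns of group means, fold changes and p-values were not used. Transcripts were summed per gene identifier, 3843 of 35219 being at 0 throughout. Values at 10 or more in at least 4 libraries of a fit were tested with limma 3.58.1 (R 4.3.3, trend) on log2(value + 1), adjusted by Benjamini-Hochberg over all features, and called at 0.05 and 1.5-fold. Members below the filter had exact permutation tests. Fold changes on this scale understate those of low genes. Members and gene lists were chosen with earlier results of these data known. Named were all members, the 3 genes most like each called member (1 of them is not reported here), and from the pathway list the 6 largest called rises and falls and 6 set genes. PDGFA, NF1, EGR1, MYC, JUN, SPRED1 and SPRED2 outside differentiation and the marker and leading-library values were chosen after their values were seen. Alternatives were a pseudocount of 0.1, quantile normalization, a filter at 1, all groups in a single fit, a replicate block, the span slope, library weights, no use of the 7 libraries that stand apart, and leaving out each library. Same-numbered libraries correlated in their deviations by 0.162 to 0.671 in MC, FC and MFGR and by -0.398 to 0.565 in FFGR. The fits were tested on simulated data. Changes were placed there only in genes with mean values above those of SPRED3, SPRY4 and DUSP4, so values as low as theirs were not covered. No sequences were used.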

Additional observations from a re-analysis of the deposited data

Results flagged for a closer look

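In 6 of 64 groups of 4 libraries, 1 library lay far from the other 3 by Dixon's test. The test used the values themselves and was not run on the log2 scale. By chance it flags about 1 in 20 groups when values are normally distributed, a rate that need not hold here. In each flagged group the outlying library was the highest one. SPRY1 was 334.9 in MCD replicate 3, against 70.9 to 111 in the others. SPRY4 was 7.06 in MC replicate 3 (others 1.99 to 2.82), 56.3 in MFGRD replicate 1 (7.77 to 11.7) and 74.2 in FFGRD replicate 1 (14.2 to 20.4). DUSP6 was 1447 in FCD replicate 2 (7.76 to 90.3) and 351.4 in FFGRD replicate 1 (90.5 to 115). FFGRD replicate 1 was thus the high library for both SPRY4 and DUSP6, and MFGRD replicate 1 is among the libraries that stand apart.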

How the results depend on the processing

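DUSP4, SPRED3 and SPRY4 were called over the mean of the 4 groups in every setting run, including each fit without 1 library. At the filter of 10, SPRED3 and SPRY4 passed only through the stage in which they were high and so had to differ. Their calls are therefore descriptions. The calls within single groups rested on few libraries and values near 0, where a log2 change depends on the added 1. The cause of each change given here was not tested. For the settings below, the share of all genes called is not given, so the counts of members and transcripts called are descriptions. MC had 3 members called, which became 5 with the replicate block and with library weights, 1 with the span slope as covariate, and 1 without MCD replicate 2 and FCD replicate 2, a setting chosen after seeing the data. Its transcripts, 1 called, became 2 with the filter at 1 or all groups in a single fit, 3 with weights, and 0 with the replicate block, the covariate, without the 7 libraries that stand apart or without that pair. In FC, 0 members became 1 in the single fit (DUSP4) or with weights (SPRED1), and 0 transcripts became 2 in the single fit. In MFGR, 1 member became 3 with the block, 2 with the covariate or weights and 0 without the 7 libraries, and 0 transcripts became 1 with the filter at 1 or the single fit and 2 with the block, the covariate or weights. In FFGR, 0 members became 2 in the single fit, 1 with the covariate and 3 with weights, and 0 transcripts became 2 in the single fit. FFGR on its own was not taken as paired, since its replicate 2, a library that stands apart, did not follow its number (r = -0.398), while the other 3 did (0.331 to 0.565). The block over the mean of the 4 groups nevertheless paired same-numbered libraries in FFGR as well. Over the mean of the 4 groups the block added SPRED1 (adjusted p = 0.04953 by limma), and SPRY1-201 (adjusted p = 0.01503), and it changed no other call there.

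Without the 7 libraries, the log2 fold changes in FFGR turned to -0.27 for DUSP6, -0.13 for SPRY1 and -0.52 for SPRY2, genes and transcripts alike, that of SPRED2-201 in MC became 0.0174, and the SPRED3 difference in response became -0.65 for MFGR against MC and 0.19 for MC against FC. The last was 0.0491 with quantile normalization and 0.0479 without MCD replicate 2 and FCD replicate 2. With weights SPRED1 in FFGR became 1.33 and SPRY2-201 in FFGR -0.27.

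Leaving out 1 library gave 1 to 4 members and 0 to 2 transcripts called in MC, 0 to 1 members in MFGR, and 3 to 5 members (3 without FC replicate 4) and 3 to 5 transcripts over the mean of the 4 groups. The direction turned within these ranges: SPRY1 in FC -0.0081 to 0.82, SPRY2 in MFGR -0.0427 to 0.29, SPRED1 in FFGR -0.76 to 0.81, SPRY2 in FFGR -0.0202 to 1.06, SPRED2-201 in MC -0.69 to 0.0174, and the SPRED3 differences -1.35 to 0.0080 (FFGR against FC) and -1.08 to 0.0119 (MC against FC).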
